A study of Mus musculus with 6 samples.

Results

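Compact myelin is the tightly wound part of the sheath that a Schwann cell lays around an axon. The genes described here are 5 whose proteins are built into it, Mbp, Pmp22, Pmp2, Mal and Mobp, taken by name from the 24421 genes of each count file. Their transcripts were measured in sciatic nerve, the main nerve of the mouse hind limb, in 3 libraries labelled cKO for YAP and TAZ together and 3 labelled WT for YAP and TAZ. YAP and TAZ are co-activators of transcription that the Hippo pathway restrains and that work with TEAD factors. The series' title asks how they bear on peripheral myelination. The sources used here give neither the age, strain and Cre driver nor the deleted part of each gene, and the design text counts 3 mice per group. Gene counts came to between 24651262 and 32003497 in the cKO libraries and between 41270894 and 47044158 in the WT libraries. Transcripts of both sexes stood in each library, with Xist at 133.9 to 258.0 CPM and Ddx3y of the Y chromosome at 8.93 to 47.96 CPM. Pooling of nerves is not mentioned in the labels, and p-values measure the spread between these libraries, which may be technical in part. Counts over the whole genes did not check the labels: Yap1 lay at 102.6 to 108.8 CPM in cKO and 120.4 to 123.7 CPM in WT libraries, and Wwtr1, which encodes TAZ, at 337.4 to 372.0 CPM in cKO and 253.8 to 284.2 CPM in WT libraries. Neither was called lower, and every direction given here rests on the labels.

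A myelin sheath compacts when the facing membranes of each turn are drawn together. Myelin basic protein (Mbp) and peripheral myelin protein 2 (Pmp2, a lipid-carrying member of the fatty acid binding family) act at the cytoplasmic faces. Peripheral myelin protein 22 (Pmp22) is a protein with several membrane spans whose dose matters: in humans, duplication of the gene causes a demyelinating neuropathy and deletion of a copy a pressure-sensitive one. Mal is a small membrane proteolipid of lipid-rich domains that takes part in sorting cargo to the myelin membrane. Mobp is a basic protein of the cytoplasmic face known mainly from oligodendrocytes, the myelinating cells of the central nervous system.

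All 5 genes were lower in the cKO libraries. Each passed the filter on low counts and the test of all genes (edgeR quasi-likelihood test, Benjamini-Hochberg adjusted p under 0.05), where 912 of 14789 tested genes, or 6.17%, were called lower and 706, or 4.77%, higher. The count of lower genes was 459 without cKO 3 and 575 without WT 2, and that of higher genes ran from 276 without cKO 3 to 1075 without WT 3, while the 5 calls held in each fit that left out 1 library. Every cKO library lay below every WT library for all 5, against 15.8% of tested genes. The members' median log2 fold change was -2.02, beside 0.02 for all tested genes. Mobp passed the filter only through the WT libraries, so it had to differ, and the other 4 were abundant in both groups.

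**Figure D1:**
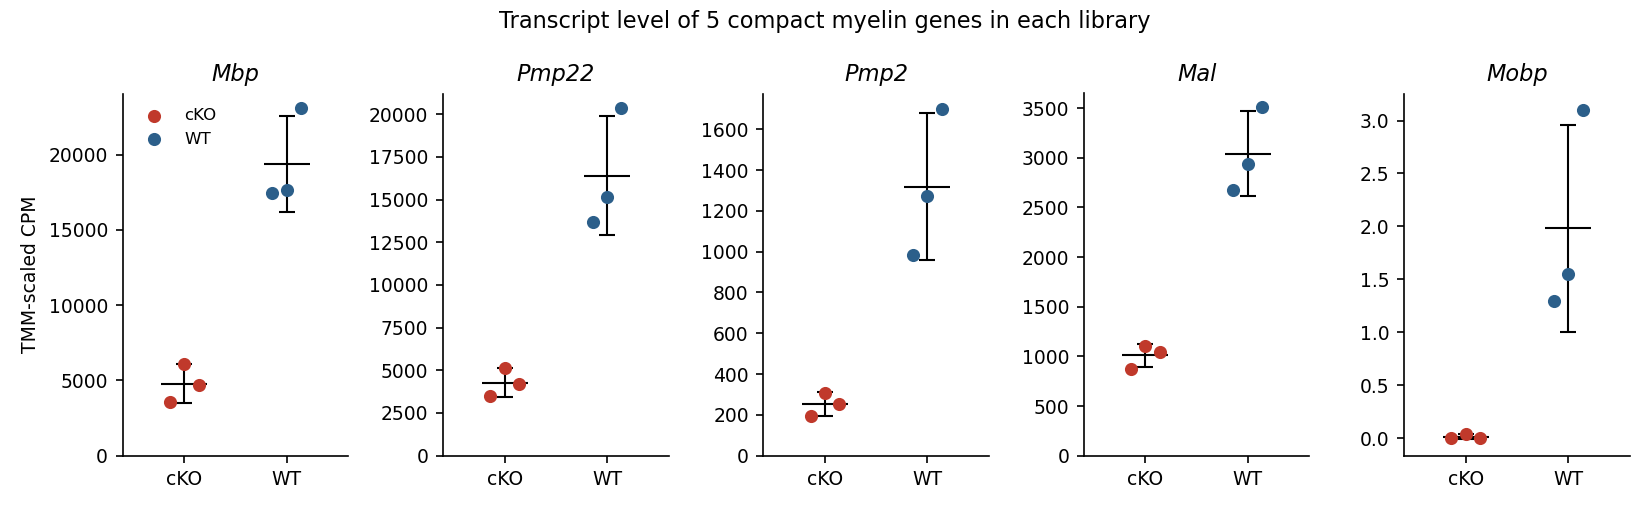
TMM-scaled CPM (vertical axis, linear) of each gene in the 3 cKO libraries (left, red) and the 3 WT libraries (right, blue); bars give mean ± SD and points are libraries. The groups do not overlap for any of the 5 genes, and in the WT group the third library is the highest in each panel.

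Mbp (mm10 chromosome 18, 82475146 to 82585637, plus strand) had 3536, 6123 and 4685 CPM in libraries cKO 1, 2 and 3, against 17418, 17669 and 23080 CPM in libraries WT 1, 2 and 3. CPM here means counts scaled to library size with TMM factors. The lowest WT library was 2.84-fold above the highest cKO library. Mbp fell 4.06-fold, or log2 -2.02 ± 0.21 (SE over 3 libraries per group; edgeR adjusted p = 0.000765). By CPM it ranked 10 among tested genes in cKO and 2 in WT libraries. The Mbp locus also makes Golli transcripts, which start upstream and are made outside myelin, and counts per gene do not separate them.

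Pmp22 (chromosome 11, 63128982 to 63159547, plus strand) had 3474, 5158 and 4206 CPM in libraries cKO 1, 2 and 3, against 13679, 15172 and 20361 CPM in libraries WT 1, 2 and 3. Its groups were separated by a gap of 2.65-fold. Pmp22 fell 3.83-fold (log2 -1.94 ± 0.20, SE, n = 3 per group; edgeR adjusted p = 0.000656) and ranked 11 by CPM in cKO and 3 in WT libraries.

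Pmp2 (chromosome 3, 10179851 to 10183929, minus strand) had 194.1, 308.9 and 255.4 CPM in libraries cKO 1, 2 and 3, against 984.3, 1274 and 1700 CPM in libraries WT 1, 2 and 3. It had the widest gap of the 4 abundant genes, with the lowest WT library 3.19-fold above the highest cKO library. Pmp2 fell 5.22-fold (log2 -2.38 ± 0.23, SE, n = 3 per group; edgeR adjusted p = 0.000606). In rank by CPM it stood at 569 in cKO and at 60 in WT libraries.

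Mal (chromosome 2, 127633226 to 127656695, minus strand) had 876.9, 1107 and 1044 CPM in libraries cKO 1, 2 and 3, against 2670, 2939 and 3514 CPM in libraries WT 1, 2 and 3. Its libraries were the tightest of the 5 genes, with a coefficient of variation of 11.8% in cKO and 14.2% in WT. Mal fell 3.01-fold (log2 -1.59 ± 0.14, SE, n = 3 per group; edgeR adjusted p = 0.000441), and its groups were 2.41-fold apart at their nearest libraries.

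Mobp (chromosome 9, 120149707 to 120181484, plus strand) was a rare transcript in this nerve, at or near 0 counts in the cKO libraries. It had 0, 1 and 0 counts in libraries cKO 1, 2 and 3, against 60, 62 and 123 counts in libraries WT 1, 2 and 3. In WT that is 1.30, 1.55 and 3.10 CPM. With 1 count in all cKO libraries together and 245 in all WT libraries, the ratio of WT to cKO was 176-fold, with an exact 95% counting interval of 31.4-fold to 6998-fold. That interval covers counting error only. The fitted log2 fold change of -7.09 ± 0.84 (edgeR adjusted p = 0.00139) depends on the prior count.

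Mobp was set beside 10 markers of oligodendrocytes. Of these, 7 were too low to be tested, among them the lineage factors Olig1 and Olig2, which had 0 or 1 count in every library. The myelin surface protein Mog had 0, 0 and 1 counts in cKO and 0, 0 and 8 in WT libraries, and Opalin had 0, 0 and 1 in cKO and 3, 1 and 8 in WT libraries. All 3 WT libraries held at least 60 counts of Mobp. WT 3, the library with the most Mog and Opalin at 8 counts each, also held the most Mobp, at 123 counts. Which cells the Mobp transcripts came from was not tested.

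Placed among all tested genes, the 4 abundant members lay at the lower edge of the distribution. From the most negative log2 fold change upwards, Pmp2 ranked 38, Mbp 67, Pmp22 76 and Mal 137 of 14789. The place of Mobp is not read here, since it rests on the prior count. The same was seen among abundant transcripts: of 92 genes whose mean log2 CPM reached 10, 17 were called lower and 3 higher. Within those 92 the log2 fold change of Mbp ranked 2, of Pmp22 3 and of Mal 6 from the bottom.

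**Figure D2:**
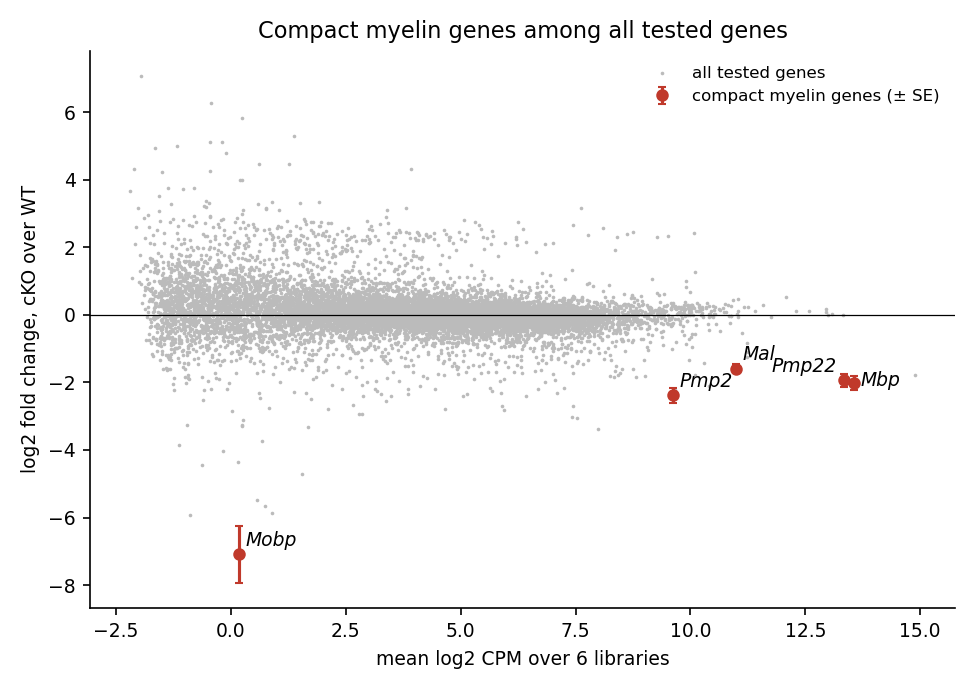
Log2 fold change of cKO over WT (vertical axis) against mean log2 CPM over 6 libraries (horizontal axis) for the 14789 tested genes (grey) and the 5 compact myelin genes (red, ± SE). Mbp and Pmp22 lie at -2.02 and -1.94 among the most abundant transcripts, and Mobp lies at -7.09 among the rare ones.

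The 5 genes took a smaller part of the sequenced transcripts in cKO libraries. Together they held 0.837%, 1.32% and 1.07% of gene counts in cKO 1, 2 and 3 and 3.41%, 3.59% and 4.48% in WT 1, 2 and 3. These shares use no scaling factor. Mbp alone held 0.366% to 0.638% in cKO and 1.71% to 2.13% in WT libraries, and Pmp22 0.360% to 0.537% in cKO and 1.34% to 1.88% in WT libraries.

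Levels of different genes were compared per kilobase, with the median length of each gene's coding transcripts in the GENCODE M21 annotation. Pmp22 was then the most abundant of the 5, at 3379 ± 667 CPM per kilobase in cKO and 12952 ± 2769 in WT libraries (SD, n = 3 each). Mbp followed with 2472 ± 670 in cKO and 10023 ± 1654 in WT libraries on the same scale. The ranges of these neighbours in the order overlapped in both groups, while within each of the 6 libraries Pmp22 was above Mbp, by at least 1.29-fold in cKO and by up to 1.35-fold in WT libraries. Mal had 618 ± 72.8 CPM per kilobase in cKO and 1863 ± 264 in WT libraries, and Pmp2 180 ± 40.8 in cKO and 937 ± 256 in WT libraries, each apart from its neighbours. Mobp was last, at 3.98 ± 1.96 CPM per kilobase in WT libraries. The order of the means was the same with the length of all exons joined, but Mal (1095 ± 155) and Pmp2 (937 ± 256) then overlapped in WT libraries. Pmp22 then stood further above Mbp, at 1818 ± 359 against 565 ± 153 in cKO libraries. In WT libraries these values were 6969 ± 1490 and 2289 ± 378. The joined length of Mbp, 8469 bases against 2354 for Pmp22, takes in every annotated transcript. Coding transcripts run from 723 to 1822 bases for Pmp22 and from 354 to 4797 for Mbp. Which of them the nerve makes was not measured, so the order of Pmp22 and Mbp rests on the lengths chosen.

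The abundant genes varied together from library to library. In the cKO group Mbp, Pmp22, Pmp2 and Mal were each lowest in cKO 1, intermediate in cKO 3 and highest in cKO 2. In the WT group all 5 genes were lowest in WT 1 and highest in WT 3. Over all 6 libraries the log2 CPM of any pair of the 5 correlated with a Pearson r of at least 0.9898. This is a description over libraries that share the group difference. For Mobp, with 0 or 1 count in each cKO library, the cKO values were set almost wholly by the prior count. Its r with the other members was therefore largely fixed by the group difference.

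Ratios between members within a library do not depend on scaling, and they show whether the falls were of like size. The log2 ratio of Pmp2 to Mal was -2.18, -1.84 and -2.03 in cKO 1, 2 and 3 and -1.44, -1.21 and -1.05 in WT 1, 2 and 3. It was lower in every cKO library, by 0.78 on average, so that Pmp2 lost a further 1.72-fold relative to Mal. Pmp22 to Pmp2 was higher in every cKO library, at a mean log2 ratio of 4.09 ± 0.06 in cKO and 3.65 ± 0.13 in WT (SD, n = 3 each). Mbp to Pmp2 was likewise higher, at 4.23 ± 0.07 in cKO and 3.90 ± 0.21 in WT.

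The ratios to Mal were lower in every cKO library. Mbp to Mal had a mean log2 ratio of 2.22 ± 0.23 in cKO and 2.67 ± 0.07 in WT, and Pmp22 to Mal 2.07 ± 0.13 in cKO and 2.42 ± 0.10 in WT (SD, n = 3 each), with no overlap in either. The exception was Mbp to Pmp22, at 0.14 ± 0.11 in cKO and 0.25 ± 0.09 in WT, where the groups overlapped. For the 5 other pairs the exact two-sided permutation test gave p = 0.1, the smallest that 3 against 3 allows (0.12 adjusted over 6 pairs), and for Mbp to Pmp22 it gave p = 0.4. No pair could therefore reach 0.05 in this design. Mobp was kept out of the ratios because its cKO counts were 0 or 1.

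**Figure D3:**
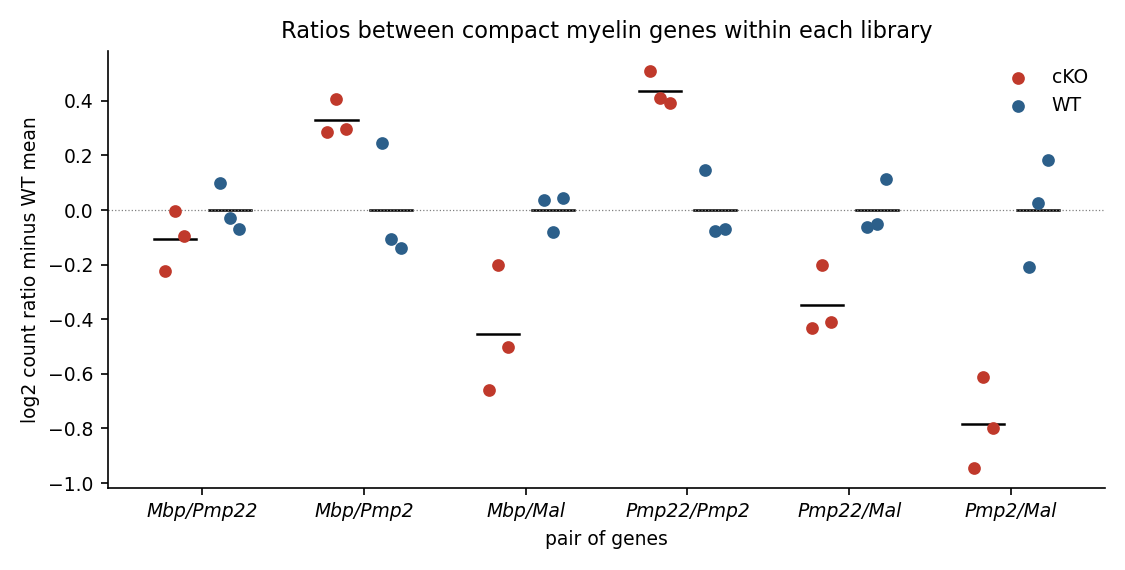
Log2 ratio of the counts of 2 genes in each library, minus the mean of the WT libraries (vertical axis), for 6 pairs (horizontal axis); cKO libraries are red on the left of each pair, WT libraries blue on the right, and short lines are means. The ratio of Pmp2 to Mal shows the largest shift, -0.78, and Mbp to Pmp22 is the pair whose groups overlap.

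Other proteins of the myelin sheath were lower as well. Of 20 tested, 19 were called lower and 0 higher, with a median at log2 -1.29 and a range among the called from -2.70 to -0.37. The end at -0.37 was Cd82 (edgeR adjusted p = 0.0469), which lost its call in every fit that left out 1 library. Those fits called 15 to 18 of the 20 lower, and 459 to 1120 of all genes. Drp2, which ties the dystroglycan complex to periaxin, had 28.1, 62.8 and 48.0 CPM in libraries cKO 1, 2 and 3, against 248.6, 237.1 and 415.8 CPM in libraries WT 1, 2 and 3. It was the 1 member of that list with a more negative log2 fold change than Pmp2. The lipid enzyme Ugt8a, which makes galactosylceramide, averaged 288.3 ± 56.6 CPM in cKO and 1342 ± 376 CPM in WT libraries (SD, n = 3 each), a 4.65-fold fall. Fa2h, which hydroxylates the fatty acids of myelin lipids, fell 2.54-fold to 175.2 ± 35.5 CPM in cKO, against 445.3 ± 44.9 CPM in WT libraries. Sirt2, a deacetylase held in myelin, averaged 197.7 ± 11.1 CPM in cKO and 393.0 ± 48.2 CPM in WT libraries.

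The 5 compact myelin genes were all below the median of this wider list, and 7 of its 20 genes had a more negative log2 fold change than Mal. A fit with the level of skeletal muscle transcripts as a covariate called 0.467% of all tested genes lower and 0.0473% higher, against 6.17% and 4.77% without it. In that fit 6 of the 20 were called lower, and the median of the list was at log2 -1.67.

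Of 12 transcription factors and cofactors of Schwann cell myelination, 3 were lower and 0 higher by edgeR, against 6.17% and 4.77% of all tested genes. Their median was at log2 0.00. Higher calls numbered 1 with DESeq2, which called 997 of all 14789 tested genes higher and 1257 lower. At an unadjusted p under 0.05, 3 were lower and 2 higher. The share of all genes at that unadjusted threshold is not given here. Egr2, which drives myelin genes, had 159.6, 164.1 and 157.4 CPM in libraries cKO 1, 2 and 3, against 218.2, 251.0 and 223.3 CPM in libraries WT 1, 2 and 3. That is log2 -0.53 ± 0.09 (edgeR adjusted p = 0.00627), beside -2.02 for Mbp and -1.94 for Pmp22. Its partner Nab1 fell 1.72-fold and Zeb2, a repressor needed for Schwann cells to mature, 1.32-fold. For Zeb2, 4 of the 6 fits without 1 library gave no call, those without cKO 1 (edgeR adjusted p = 0.0705), cKO 2 (0.0619), cKO 3 (0.109) and WT 2 (0.109). With muscle as a covariate, in the fit that called 0.467% of all genes lower, 0 of the 12 were called lower, and the log2 fold changes were -0.35 ± 0.18 for Egr2, -0.91 ± 0.31 for Nab1 and -0.35 ± 0.21 for Zeb2.

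Over all tested genes, 6.17% were lower and 4.77% higher. Of 10 proteins that bind or carry myelin transcripts or their RNA granules, 1 was lower and 0 higher, near those shares. That 1 was Qk, which binds and stabilises the Mbp transcript, with 741.6 ± 44.6 CPM in cKO and 1122 ± 116 CPM in WT libraries (SD, n = 3 each; log2 -0.60 ± 0.11, edgeR adjusted p = 0.00894). Its call was lost without cKO 3 (edgeR adjusted p = 0.0503), and 2 of the 10 were called lower without WT 3. Hnrnpa2b1, which binds the transport signal of Mbp transcripts, did not pass, at log2 0.03 ± 0.11 (edgeR adjusted p = 0.923).

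Relatives of the members by protein family moved both ways. Of 15 relatives 14 were tested, and Mal2 was too low. Of the 14, 4 were lower and 1 higher, against 6.17% and 4.77% of all tested genes. The median of the 14 was at log2 0.08. Among the relatives of Pmp22, Emp2 fell 2.21-fold to 161.7 ± 25.1 CPM in cKO, against 356.7 ± 35.2 CPM in WT libraries (SD, n = 3 each). Emp1 and Emp3 did not pass, with log2 fold changes of -0.03 ± 0.09 and 0.19 ± 0.11.

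Among the fatty acid binding proteins related to Pmp2, Fabp3, the form of heart and skeletal muscle, rose 4.53-fold. It had 22.6, 39.7 and 26.7 CPM in libraries cKO 1, 2 and 3, against 10.4, 3.32 and 5.80 CPM in libraries WT 1, 2 and 3. The summed level of 12 skeletal muscle markers moved the same way, at 3834 to 8595 CPM in cKO and 380.0 to 1473 CPM in WT libraries. With that level as a covariate Fabp3 was at log2 0.47 ± 0.40, against 2.18 without it, and Emp2 at -1.39 ± 0.26, against -1.14. In that fit, with 0.467% of all genes called lower and 0.0473% higher, 0 of the relatives were called in either direction. Fabp5 (log2 -0.48 ± 0.14), Fabp4 of fat cells (0.84 ± 0.49) and Fabp7 of immature glia (0.69 ± 0.26) did not pass. Fabp5 was called lower without cKO 1 (log2 -0.66) and Fabp4 higher without WT 3 (log2 1.83). Of the proteins that share the MARVEL membrane domain of Mal, Pllp, another proteolipid of myelin, fell 1.74-fold, Cmtm5 1.58-fold and Cmtm6 1.53-fold. Cmtm5 lost its call without cKO 2, cKO 3 or WT 2 (edgeR adjusted p = 0.0764, 0.108 and 0.0569). Without WT 1 the relatives called higher numbered 2 and without WT 3 they numbered 3.

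**Figure D4:**
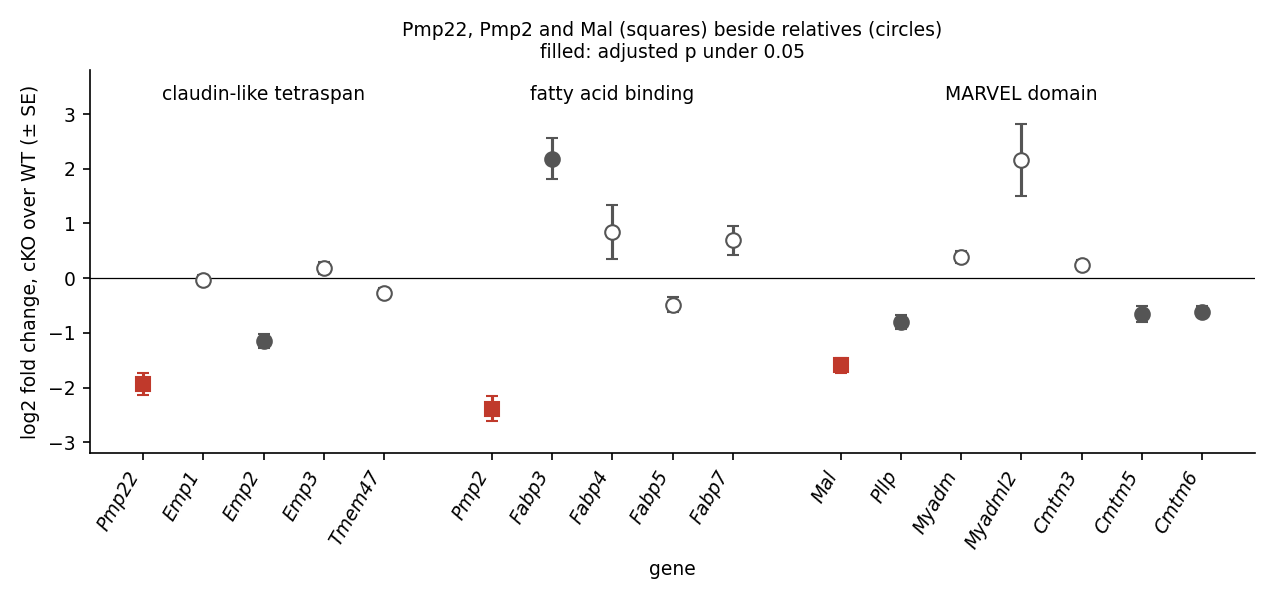
Log2 fold change of cKO over WT (± SE, n = 3 per group) for Pmp22, Pmp2 and Mal (red squares) and the tested relatives of each by protein family (circles); filled symbols have an edgeR adjusted p under 0.05. Emp2, Pllp, Cmtm5 and Cmtm6 lie below 0 with filled symbols and Fabp3 above 0.

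The sequence before the start site was examined for 3 of the members, in the RefSeq promoter table (build GRCm38.p6). Windows of Pmp22, Mal and Mobp were read, and Mbp and Pmp2 were not used here. The 250 bases before a start were searched on both strands for the letters GGAATG, a TEAD factor word, for GCGTGGG, an EGR factor word, and for ACAAAG, a SOX factor word. Capitals mark a match. The most upstream of 4 Pmp22 windows lies at chr11:63128732-63128981, plus strand, the Mal window at chr2:127656696-127656945, minus strand, and the Mobp window at chr9:120149492-120149741, plus strand.
Pmp22: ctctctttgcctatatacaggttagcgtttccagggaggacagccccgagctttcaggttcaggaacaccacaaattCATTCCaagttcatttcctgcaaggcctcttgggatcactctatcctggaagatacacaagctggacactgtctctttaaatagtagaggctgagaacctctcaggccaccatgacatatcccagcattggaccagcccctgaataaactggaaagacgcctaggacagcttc
Mal: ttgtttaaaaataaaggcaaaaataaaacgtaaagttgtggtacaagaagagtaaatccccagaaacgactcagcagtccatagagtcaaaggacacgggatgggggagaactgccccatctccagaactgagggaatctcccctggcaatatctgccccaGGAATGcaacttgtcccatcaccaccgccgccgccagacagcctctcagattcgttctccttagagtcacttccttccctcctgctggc
Mobp: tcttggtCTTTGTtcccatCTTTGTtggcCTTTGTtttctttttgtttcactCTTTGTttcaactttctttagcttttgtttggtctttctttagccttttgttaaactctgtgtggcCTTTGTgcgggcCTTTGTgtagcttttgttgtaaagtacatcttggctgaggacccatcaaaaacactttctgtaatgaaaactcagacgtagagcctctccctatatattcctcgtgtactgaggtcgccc
The printed Pmp22 window and the Mal window each held 1 TEAD word, which began 173 bases before the Pmp22 start and 89 bases before the Mal start. The 3 other Pmp22 windows held 0 of the TEAD, EGR and SOX words. Of 32851 windows of that length in the table, 12.6% held at least 1 TEAD word, a share per single window that does not allow for the 4 windows of Pmp22. The Mobp window held 0 TEAD words and 6 SOX words, 243 to 120 bases before its start, all on the strand opposite to the gene. Of all windows, 16.5% held at least 1 SOX word. The 1 window with 6 or more was that of Mobp itself, which is among the windows counted. The EGR word was in 0 of the 3 windows printed and in 4.30% of all. The SOX word was chosen after the Mobp window had been seen, so the rarity of 6 words is not read here. A match of letters is a description and not a binding site.

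The genes whose log2 CPM followed the members most closely over the 6 libraries were sought among 10007 genes whose mean log2 CPM reached 3. Each member's 5 nearest, 23 different genes in all, had a Pearson r between 0.99798 and 0.99982 and were all called lower. Among the nearest to Mbp were the potassium channel Kcnk1, the phosphatidylcholine enzyme Pcyt1b, Insig1 and Lss. Of these, Insig1 takes part in sterol sensing, and Lss is an enzyme of cholesterol synthesis. Lss had 38.1, 73.2 and 54.6 CPM in libraries cKO 1, 2 and 3, against 230.7, 236.2 and 278.8 CPM in libraries WT 1, 2 and 3, with the same order of libraries as Mbp in both groups.

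Nearest to Pmp22 were Scn3b, Epb4.1l2, Ugt8a, Tmem189 and Hmgcs1, and nearest to Pmp2 were Fut8, Scn3b, Ctnnal1, Cpeb2 and Pmvk. For Mal they were Frmd3, Nek1, Cyp51, Msmo1 and Fut8, and for Mobp Faah, B4galt6, Csgalnact1, Adcy1 and Fdps. Hmgcs1, Pmvk, Cyp51, Msmo1 and Fdps are enzymes of the mevalonate and sterol pathway. The cKO values of Mobp were set almost wholly by the prior count, so its nearest genes were largely fixed by the group difference. An r over 0.99 with a given member was reached by 89 to 116 of the genes compared, or 0.889% to 1.16%, and 6 libraries in 2 groups make any gene with a like group difference correlate.

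Markers of cell types were read beside these falls. Of 10 markers of the Schwann cell lineage, 3 were lower (Gfra3, Ngfr and Gpr37l1) and 0 higher by edgeR, DESeq2 and limma-voom alike. Their median was at log2 -0.13, and by edgeR 6.17% of all tested genes were lower and 4.77% higher. Of all 14789 genes DESeq2 called 1257 lower and 997 higher, and limma-voom 911 and 732. An unadjusted p under 0.05 was reached by 3 lower and 0 higher markers, and the share of all genes at that threshold is not given here. Their summed level was 1964 to 2108 CPM in cKO and 2050 to 2334 CPM in WT libraries, so the groups overlapped. Sox10, the factor that defines the lineage, was at log2 -0.17 ± 0.14 and S100b at 0.27, and neither passed, though S100b was called higher without WT 3 (log2 0.55). Leaving out cKO 3 or WT 2 ended the call of Ngfr, and so did leaving out cKO 2, cKO 3 or WT 2 for Gpr37l1. Divided by that summed level, Mbp was lower by 1.93 on the log2 scale in cKO, Pmp22 by 1.82, Pmp2 by 2.26 and Mal by 1.48, and the groups overlapped for none of the 4. In whole nerve, fewer cells of a type and less RNA per cell cannot be told apart.

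Skeletal muscle transcripts moved with the groups in the opposite direction. Of 12 muscle markers 10 were higher and 0 lower, against 4.77% and 6.17% of all tested genes. DESeq2 called 11 of them higher, with 997 of all 14789 genes, and limma-voom 9, with 732. Without cKO 2 or without cKO 3, 7 were called higher, with 395 and 276 of all genes. The summed level of the 12 markers was 3834, 8595 and 5086 CPM in libraries cKO 1, 2 and 3. It was 1473, 380.0 and 1386 CPM in libraries WT 1, 2 and 3. Within the cKO group, Mbp, Pmp22, Pmp2 and Mal were highest in cKO 2, the library with the most muscle, and lowest in cKO 1, the library with the least. Within the WT group they were highest in WT 3 and not in WT 2, which held the least muscle. Each order rests on 3 libraries, and the part of muscle in the falls was not tested. In a fit with that summed level as a covariate, the log2 fold changes were -2.61 ± 0.38 for Mbp, -2.38 ± 0.38 for Pmp22, -2.76 ± 0.44 for Pmp2 and -1.81 ± 0.28 for Mal. All 4 were called lower (edgeR adjusted p = 0.0308, 0.0417, 0.0436 and 0.0406), in a fit with 69 genes called lower in all. Every cKO library held more muscle than every WT library, so that fit cannot tell muscle and group apart. Mobp was at -7.81 ± 1.35 in that fit and missed the threshold (edgeR adjusted p = 0.0531).

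**Figure D5:**
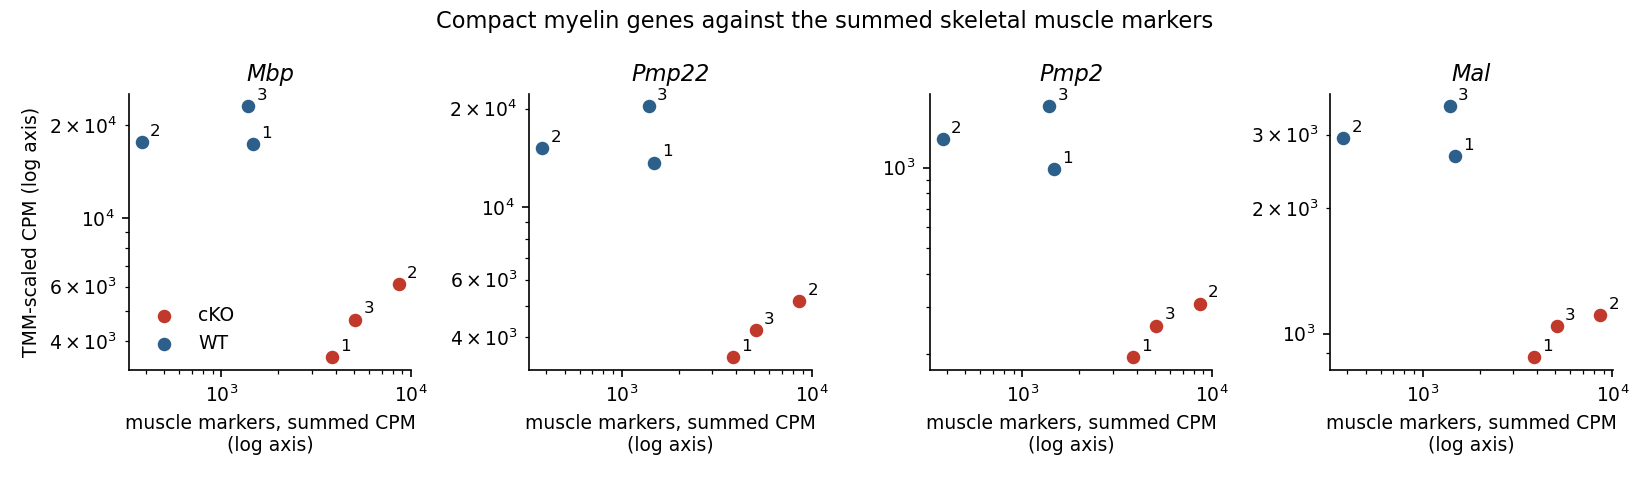
TMM-scaled CPM of 4 compact myelin genes (vertical axis, log) against the summed CPM of 12 skeletal muscle markers (horizontal axis, log) in each library; numbers are replicates, cKO red and WT blue. In cKO libraries the 4 genes are highest where muscle is highest, in cKO 2 at 8595 CPM, and the groups are apart on both axes.

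Markers of other cells that share a nerve sample were read likewise. Of 8 adipocyte, 8 endothelial and 8 tested macrophage and T cell markers, 0 were called in either direction by edgeR, DESeq2 or limma-voom. At an unadjusted p under 0.05, 0 adipocyte, 2 endothelial and 4 macrophage and T cell markers were higher. The share of all genes at an unadjusted p under 0.05 is not given here. Of 10 fibroblast and perineurial markers, 1 was lower (Itgb4) and 1 higher (Clec3b), near the 6.17% and 4.77% of all tested genes. Itgb4 kept its call without cKO 2 and Clec3b without WT 3. Both lost it in the 5 other fits that left out 1 library. Summed adipocyte markers lay at 326.0 to 485.1 CPM in cKO and at 100.8 to 494.3 CPM in WT libraries, with WT 3 the highest of all 6. Without WT 3, 8 adipocyte, 6 endothelial and 4 macrophage and T cell markers were called higher (edgeR). Of all 14941 genes tested in that fit, 1075 were called higher, against 706 of 14789 with every library. The members were at log2 -1.90 for Mbp, -1.78 for Pmp22, -2.19 for Pmp2 and -1.50 for Mal in that fit. The part of these other cells in the falls of the myelin genes was not tested.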

How the data were processed

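RNA from sciatic nerve was extracted with Trizol and RNeasy and sequenced from Illumina TruSeq RNA libraries, per the labels. The deposited files hold raw counts per gene symbol, 1 file per library. The submitters' processing notes name TopHat2 2.0.13, HTSeq and the build mm10. The sources used here give neither the annotation nor the strand setting of the counting. Closing lines of the files that name no gene were left out: reads in no gene made up 12.1% to 14.3% and reads shared by genes 1.64% to 2.82% of a file.

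From these counts, edgeR 4.0.16 in R 4.3.3 was run on all 6 libraries: filterByExpr with a minimum count of 10, TMM factors and the quasi-likelihood F test with group as the only term. A call means a Benjamini-Hochberg adjusted p under 0.05 over 14789 genes. The SE was taken as the size of the log2 change over the root of its F statistic. In simulated counts for this comparison, with 14638 genes tested, a log2 change of 2 was called in 60 of 65 genes and a log2 change of 1 in 40 of 65, and 5 of 14442 unchanged genes were called. A count of 0 allows up to 0.0649 to 0.117 CPM (3 counts), counting error only. Ratios between members added 0.5 to each count.

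Positions and lengths came from GENCODE M21 (GRCm38, the assembly of mm10) by symbol for all 5 genes. There, 1224 bases of Pmp2 exons are also assigned to Gm37389, a gene that is not among the symbols counted. Alternatives used DESeq2 1.42.0, limma 3.58.1 (voom), other scalings and filters, a replicate block, a muscle covariate and each library left out. The muscle covariate was the log2 summed CPM of 12 markers. From each list up to 6 called genes in order of p could be named. Emp1, Emp3, Fabp4, Fabp5, Fabp7, Hnrnpa2b1, Sox10, S100b and the other uncalled or marker genes named were chosen after their values were seen, and some list members are not reported by name here. The members and lists were chosen with earlier results of these data known.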

Additional observations from a re-analysis of the deposited data

How the results depend on the processing

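The 5 members kept their direction under all alternatives, and all but 1 of the calls held. Over the 9 alternatives that used every library, log2 fold changes ran from -2.61 to -1.89 for Mbp, -2.38 to -1.81 for Pmp22, -2.76 to -2.25 for Pmp2 and -1.81 to -1.46 for Mal. The call lost was that of Mobp with the muscle covariate (log2 -7.81). Total counts only moved the median of all genes to 0.15 from 0.02 and gave 606 genes lower and 1273 higher, against 912 and 706. With the muscle covariate 69 were lower and 7 higher, and the lists had 6 other myelin proteins, 0 transcription factors, 0 RNA-binding proteins and 0 relatives lower and 0 relatives higher. Higher calls among transcription factors were 2 with total counts and 1 with DESeq2. Among relatives they were 3 with total counts, 2 without a filter and 2 with DESeq2. Over all tested genes, 997 were higher with DESeq2 and 736 without a filter, against 706 in the main fit.

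Leaving out 1 library gave 459 to 1120 genes lower and 276 to 1075 higher, 15 to 18 other myelin proteins lower, 0 to 2 RNA-binding proteins lower and 1 to 3 relatives higher. All 5 members were called in the 6 fits, from -2.24 to -1.85 for Mbp, -2.10 to -1.78 for Pmp22, -2.59 to -2.19 for Pmp2, -1.71 to -1.50 for Mal and -9.24 to -6.57 for Mobp. No ratio between members turned its sign, and Pmp2 to Mal stayed between -0.89 and -0.69. The cause of these shifts was not tested.

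Replicate numbers are shared between the groups. Deviations of same-numbered libraries from their group means correlated at -0.207, -0.122 and 0.072. With 3 libraries per group these values cannot show whether such libraries are pairs, and the main fit did not pair them. With the replicate block, 643 genes were lower and 461 higher, 17 other myelin proteins, 2 transcription factors, 1 RNA-binding protein and 3 relatives were lower, and the members stood at -2.04 for Mbp, -1.94 for Pmp22, -2.37 for Pmp2, -1.59 for Mal and -7.06 for Mobp, all still called.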
